A study of Caenorhabditis elegans with 2 samples.

Results

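The chaperonin genes of the nematode Caenorhabditis elegans were examined for chromatin association of GEI-17, a PIAS-type ligase that attaches the small protein SUMO to other proteins. They are 10 of 19973 nuclear protein-coding genes, chosen by name: the 8 genes of the cytosolic chaperonin CCT (cct-1 to cct-8), hsp-60 of the mitochondrial chaperonin, and Y22D7AL.10, which RefSeq annotates as the mitochondrial 10 kDa heat shock protein. The samples were 2 biological replicates (numbered 4 and 5) of 1 group. Whole young adults of mixed sex, aged 64 h and synchronised by starvation at L1 after bleaching, came from strain OP572. It carries the unc-119(tm4063) mutation and the insertion wgIs572, which brings in a rescuing unc-119(+) copy together with the fusion gei-17::TY1::EGFP::3xFLAG. An anti-GFP antibody precipitated the chromatin. The tagged GEI-17 was thus a transgene product in whole animals of 1 strain. Neither the tissue behind a signal nor signal independent of GEI-17 can be told apart here, since untagged worms were not analysed.

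Chaperonins are ring-shaped machines that enclose an unfolded protein and release it after ATP hydrolysis. CCT is built of paired rings of 8 related subunits and is known above all for folding actin and tubulin. In mitochondria, HSP-60 forms the chamber and the small co-chaperonin of the 10 kDa family caps it, and hsp-60 is a standard reporter gene of the mitochondrial unfolded protein response in the worm. In human, the genes for these mitochondrial proteins lie head to head.

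The data were lists of summits, the highest point of each called region, in build ce11. Each replicate had a list of 30000 candidates, as did their pool, and the reproducibility filter (irreproducible discovery rate, IDR) kept 1030 of the pooled ones. The signal is the authors' value for each summit, of unstated scale, so values are ranked within a list and never compared in size between lists. A gene is called bound where its promoter window held an IDR summit; the window reached 1000 bp upstream and 200 bp downstream of the annotated start. Distances are in the direction of the gene, with upstream negative. Read depth is unknown.

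GEI-17 summits that passed IDR lay at 4 of the 10 chaperonin genes, and these 4 genes had 3 summits among them. The genes were cct-8, encoding the theta subunit of CCT, hsp-60 and Y22D7AL.10, which share 1 summit, and cct-1, encoding the alpha subunit. The mitochondrial pair and cct-8 ranked far higher than cct-1. For comparison, a pooled candidate lay in the promoter window of 6175 protein-coding genes, and 598 of them were bound (9.68%, 95% exact Clopper-Pearson interval 8.96 to 10.4, counting error only), or 2.99% of all nuclear protein-coding genes. Of the 10 chaperonin genes, 8 had a pooled candidate. The list was made with earlier results in view and no test was made on it.

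The sequences under the 3 bound summits, and under that of cct-7, the highest-ranked member that did not pass IDR, are shown because the results turn on these 4 places. They were read from RefSeq's WBcel235, which is ce11, with 100 bases on each side of the pooled summit, 5′ to 3′ on the strand of the named gene, with the 51 bases centred on the summit in capitals. The ranges are chrIV:1094251-1094451 (minus strand) for cct-8, chrIII:1619021-1619221 (plus) for hsp-60, chrII:8185094-8185294 (plus) for cct-1 and chrV:1871892-1872092 (plus) for cct-7. The first 3 overlapped no annotated exon, and that of cct-7 overlapped the non-coding RNA gene T10B5.13.
cct-8: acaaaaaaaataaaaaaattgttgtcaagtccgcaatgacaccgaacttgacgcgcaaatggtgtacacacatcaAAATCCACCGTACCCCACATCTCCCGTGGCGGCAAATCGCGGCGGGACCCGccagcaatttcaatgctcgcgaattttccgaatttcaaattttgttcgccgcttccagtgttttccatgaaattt
hsp-60: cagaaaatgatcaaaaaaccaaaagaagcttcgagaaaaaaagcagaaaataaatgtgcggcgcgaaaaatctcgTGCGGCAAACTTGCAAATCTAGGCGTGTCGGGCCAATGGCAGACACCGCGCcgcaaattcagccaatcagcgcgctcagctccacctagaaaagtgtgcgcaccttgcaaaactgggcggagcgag
cct-1: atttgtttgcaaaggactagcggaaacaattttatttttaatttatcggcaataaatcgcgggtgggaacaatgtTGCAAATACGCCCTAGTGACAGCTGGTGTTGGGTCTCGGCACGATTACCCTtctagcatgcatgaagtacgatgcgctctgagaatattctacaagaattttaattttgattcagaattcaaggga
cct-7: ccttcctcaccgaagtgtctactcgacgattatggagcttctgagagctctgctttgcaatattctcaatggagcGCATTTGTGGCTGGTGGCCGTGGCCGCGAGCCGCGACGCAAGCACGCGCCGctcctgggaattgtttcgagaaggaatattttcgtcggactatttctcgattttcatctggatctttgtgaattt

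Among the CCT subunits, cct-8 had the highest summit. It lay in chrIV:1094212-1094510, at -431 bp from the start of cct-8, with a pooled signal of 523 and rank 63 of 30000. In replicate 4 the summit had a signal of 257 and rank 44, and in replicate 5 a signal of 266 and rank 76. The summit was called at the same base, 1094351, for the pool and for both replicates. Among the 1010 nuclear summits that passed IDR, the highest overlapping candidate had its summit on the same base in 8.72% of those with one in replicate 4 and in 11.2% in replicate 5, and the median displacement was 15 bp in each. The region was 299 bp wide, narrower than the 444 bp that 98.0% of pooled regions shared. Of the summits that passed IDR, 35.05% had a region narrower than 444 bp. Of the 598 bound genes, 13 had a higher signal than cct-8. The same summit lay at -190 bp from the start of Y55F3AR.2, the protein-coding gene on the other strand, which is therefore the nearer of the pair.

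The mitochondrial chaperonin genes shared 1 summit between their divergent starts, in chrIII:1618964-1619285. It lay at -621 bp from hsp-60 and at -192 bp from Y22D7AL.10, whose starts are 813 bp apart. The pooled signal was 435 at rank 80. In replicate 4 it was 207 at rank 64, with the summit 21 bp nearer to hsp-60, and in replicate 5 it was 233 at rank 92, with the summit 7 bp nearer. Both replicates thus placed it between the genes and among their 100 highest. The region was 322 bp wide, and 24 of the 598 bound genes had a higher signal. It is the only summit of the bound chaperonin genes whose window held no protein-coding gene outside the list. Of the 4 annotated transcripts of hsp-60, 3 start close together, which puts the summit at -621, -629 and -638 bp from them, and 1 starts far downstream, with the summit at -4007 bp.

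The third bound summit, that of cct-1, was weaker. It lay in chrII:8184972-8185415, at -249 bp, with a pooled signal of 192 at rank 362. Replicate 4 had a signal of 71.3 at rank 561, with the summit displaced by -16 bp, and replicate 5 had 128 at rank 287 with the summit on the same base. Both ranks were inside the 1030 highest of their list, but they lay further apart than those of cct-8 or hsp-60. Of the bound genes, 211 had a higher signal; over all 598 the median was 163 and the quartiles 129 and 221. The summit lay at -171 bp from mig-5, a Dishevelled homologue of Wnt signalling on the other strand. A second pooled candidate at -31 bp from cct-1 had a signal of 68.5 at rank 2998 and did not pass IDR.

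The other 6 CCT genes were not bound; 4 of them had a pooled candidate, at ranks 1413 to 24406, and cct-3 and cct-5 had none. The lowest signal that passed IDR was 110.4, and cct-7, the eta subunit, was next below it among the members at 95.8, rank 1413. Its summit at -254 bp ranked 1330 in replicate 4 (signal 49.3) and 2566 in replicate 5 (signal 47.4). It was also at -185 bp from T10B5.4 on the other strand. The zeta subunit gene cct-6 had a signal of 66.1 at rank 3268, -351 bp from its start, and its replicates were far apart, at rank 2132 in replicate 4 and 22398 in replicate 5. That summit lay 20 bp inside alh-9, an aldehyde dehydrogenase gene on the other strand.

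The pooled candidates of cct-4 and cct-2 were near the floor of the pooled list, whose lowest signal was 20.3. The delta subunit gene cct-4 had 26.9 at rank 21675, with no candidate in replicate 4 and rank 25412 in replicate 5. The beta subunit gene cct-2 had 24.5 at rank 24406 and no candidate in either replicate. The epsilon subunit gene cct-5 had no pooled and no replicate 4 candidate, and its highest of 2 in replicate 5 ranked 6573. The gamma subunit gene cct-3 had no candidate in any list. A gene without a candidate is one whose window held none of 30000 summits; the lists give no value for it. Over all 6175 genes with a pooled candidate the median signal was 41.2, so that cct-8, hsp-60, Y22D7AL.10, cct-1, cct-7 and cct-6 were above it and cct-4 and cct-2 below.

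**Figure D1:**
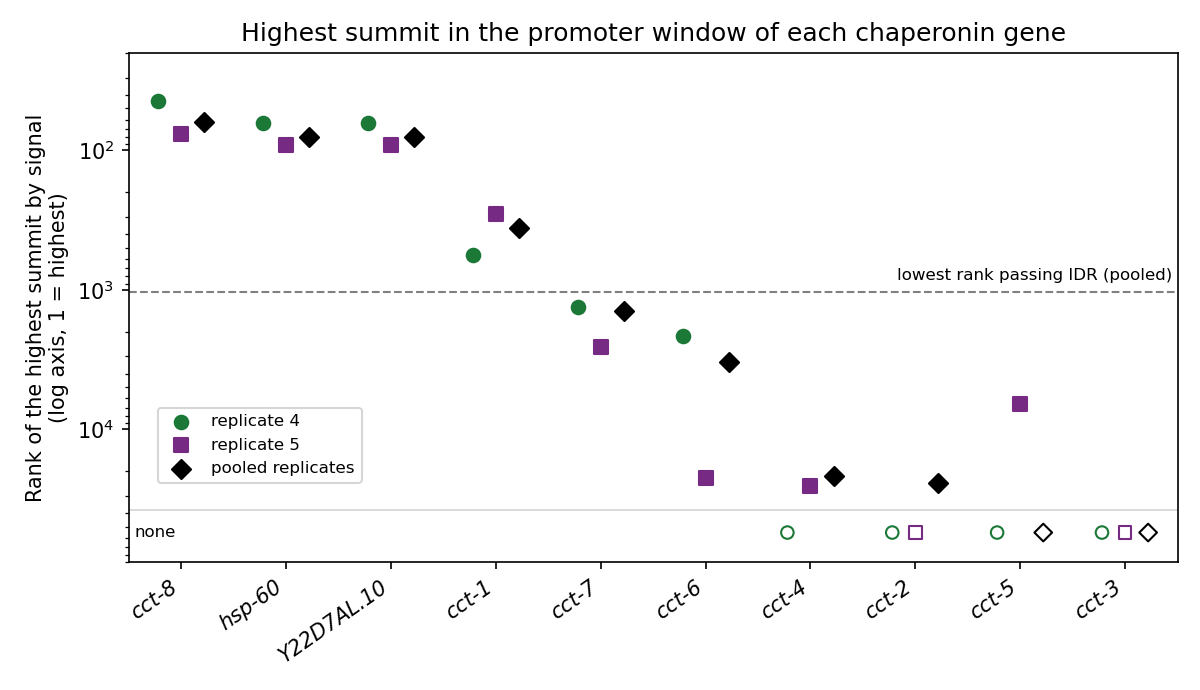
Rank by signal (log axis, 1 at the top is the highest) of the highest summit in the promoter window of each chaperonin gene, for replicate 4 (circles), replicate 5 (squares) and the pool (diamonds). Open symbols at the foot mark a list with no candidate, and the dashed line is rank 1030, the lowest that passed IDR; cct-8, hsp-60, Y22D7AL.10 and cct-1 are above it in all 3 lists.

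**Figure D2:**
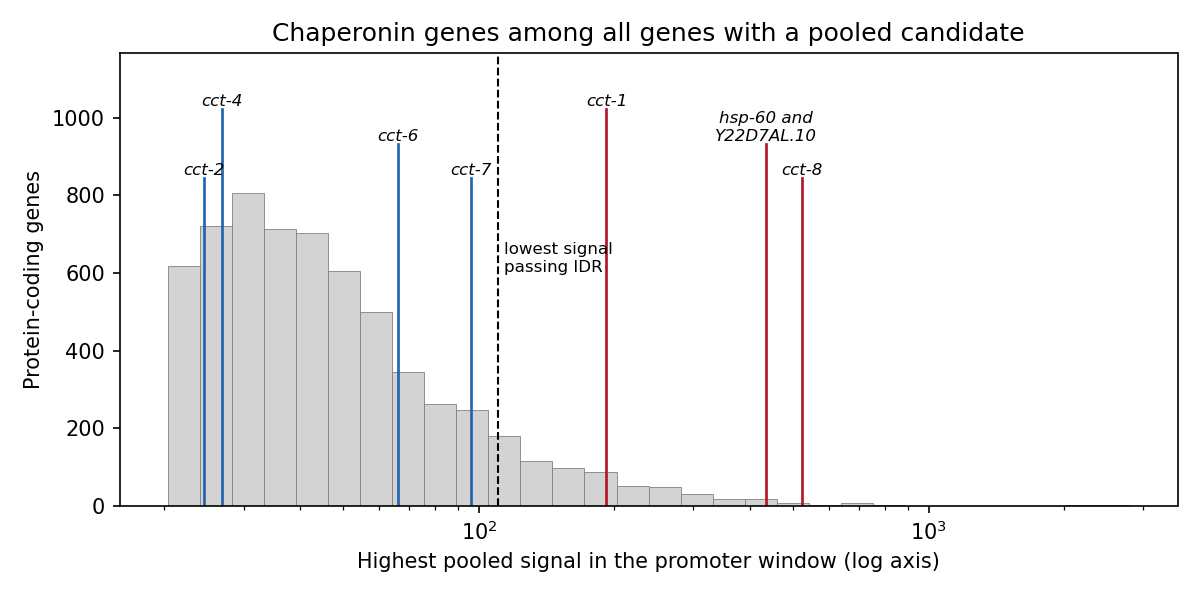
Number of protein-coding genes by the highest pooled signal in their promoter window (log axis), for the 6175 genes with a candidate, with 8 chaperonin genes marked by vertical lines. Red lines, for cct-1 (192), the hsp-60 and Y22D7AL.10 pair (435) and cct-8 (523), are to the right of the lowest signal that passed IDR (110.4), and blue lines for cct-7, cct-6, cct-4 and cct-2 are to the left.

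The list of either replicate taken alone gave the same 4 genes. Among the 1030 highest summits of replicate 4, the promoter windows of cct-1, cct-8, hsp-60 and Y22D7AL.10 held one, against 8.57% of all genes with a candidate in that list. The same 4 genes were called in replicate 5, against 9.17%. The call for 3 of the 4 genes depended on how a summit was given to a gene. When each summit was given only to the nearest start, that of cct-8 went to Y55F3AR.2, that of cct-1 to mig-5 and that of hsp-60 to Y22D7AL.10, which left 1 bound chaperonin gene, Y22D7AL.10. Position cannot tell which gene of a pair a summit belongs to.

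Every chaperonin gene lay head to head with its upstream neighbour, that is, on the opposite strand with the starts facing apart. The neighbour of a member was the nearest protein-coding gene that did not overlap it. Other genes were passed over, such as the non-coding T10B5.13, which starts between cct-7 and T10B5.4. The head-to-head arrangement held for 10 of 10 members and for 45.4% of the 19968 nuclear protein-coding genes that have an upstream neighbour. The starts were within 1000 bp of each other for 8 of the 10 members (all but cct-2 and cct-3), against 17.5% of all these genes. Since hsp-60 and Y22D7AL.10 are each other's neighbour, the 10 genes make 9 such promoters. The distance between starts ran from 331 bp at cct-6 to 1190 bp at cct-2. Among bound genes in general 62.9% were head to head, and 32.4% had starts within 1000 bp. For the 6175 genes with a pooled candidate, from which the bound genes come, these shares were 46.4% and 21.9%.

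All 8 members with a pooled candidate had their highest one in the promoter window of a gene on the other strand as well. Genes with that arrangement were bound in 15.5% of 1437 cases, and genes with a candidate but without it in 7.91% of 4738. The 4 bound chaperonin genes are 4 of the 8, and the value for genes with that arrangement is 15.5% rather than 9.68%. These genes are not separate cases, because hsp-60 and Y22D7AL.10 have the same summit and the 4 genes rest on 3 summits. The list was also made with earlier results in view, so the count was not tested against 15.5%. The 3 bound summits were all upstream of both starts. Over all bound genes the median distance was -255 bp, with quartiles of -472.5 and -130.25 bp, and hsp-60 alone of the 4 lay outside these quartiles.

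**Figure D3:**
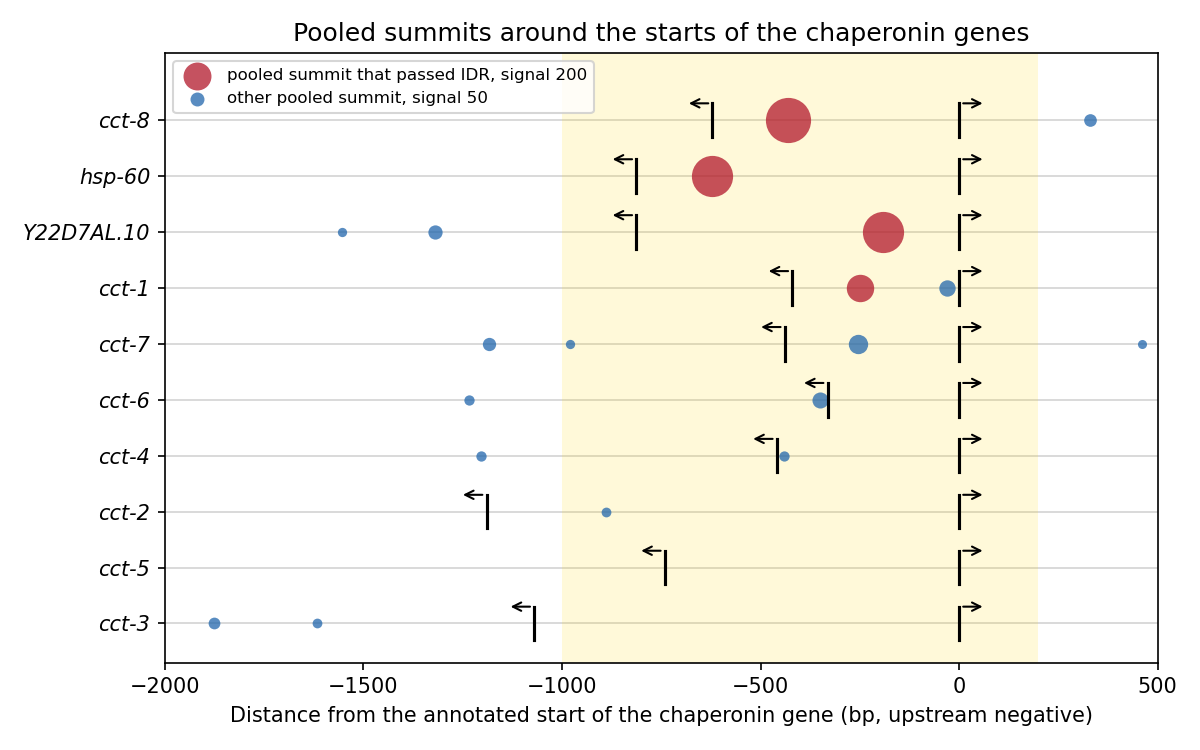
Pooled summits by distance from the start of each chaperonin gene (bp, right arrow at 0), with the start of the upstream neighbour as a left arrow and the promoter window shaded. Circle area is proportional to the pooled signal; red summits passed IDR and lie between the starts of a divergent pair, and blue ones did not pass.

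Inside the gene bodies no summit passed IDR. Downstream of the promoter window, each member had between 1 and 13 pooled candidates in its body. The highest of these in each gene had a signal between 31.4 (cct-3, rank 17162) and 70.7 (cct-1, rank 2774), all below the 110.4 that passed IDR. The largest number was in cct-5, with 13; its highest ranked 3019 when pooled, 863 in replicate 4 and 2530 in replicate 5. At the edges of the promoter window, a weak cct-7 candidate at -979 bp (rank 27596) was just inside. The cct-8 candidate at 331 bp and the cct-7 candidate at -1184 bp (ranks 10319 and 8368) were just outside.

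The bound summits lay on short stretches richer in GC than the bases beside them. In the 51 bases capitalised above, the GC content was 66.7% at cct-8, 60.8% at hsp-60 and 54.9% at cct-1, and 74.5% at cct-7. Over all 1010 nuclear summits that passed IDR the median of the same 51 bases was 50.98% (quartiles 43.1 and 56.9), and over the 29980 nuclear pooled summits it was 41.2%. The value at cct-1 was thus inside the quartiles of the summits that passed IDR, and those at cct-8, hsp-60 and cct-7 were above them. The nearest 50 bases on each side together were poorer in GC, at 45% for cct-8, 48% for hsp-60, 35% for cct-1 and 43% for cct-7. The difference between the centre and these flanks was 21.7 percentage points at cct-8, 12.78 at hsp-60, 19.9 at cct-1 and 31.5 at cct-7, against a median of 3.82 over the summits that passed IDR and 0.490 over pooled summits. The spread of this difference over all summits was not taken. The summit of cct-6 ran the other way, with 31.4% at the centre and 52% beside it. GC content can affect both sequencing and peak calling, and its part in these signals was not tested.

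**Figure D4:**
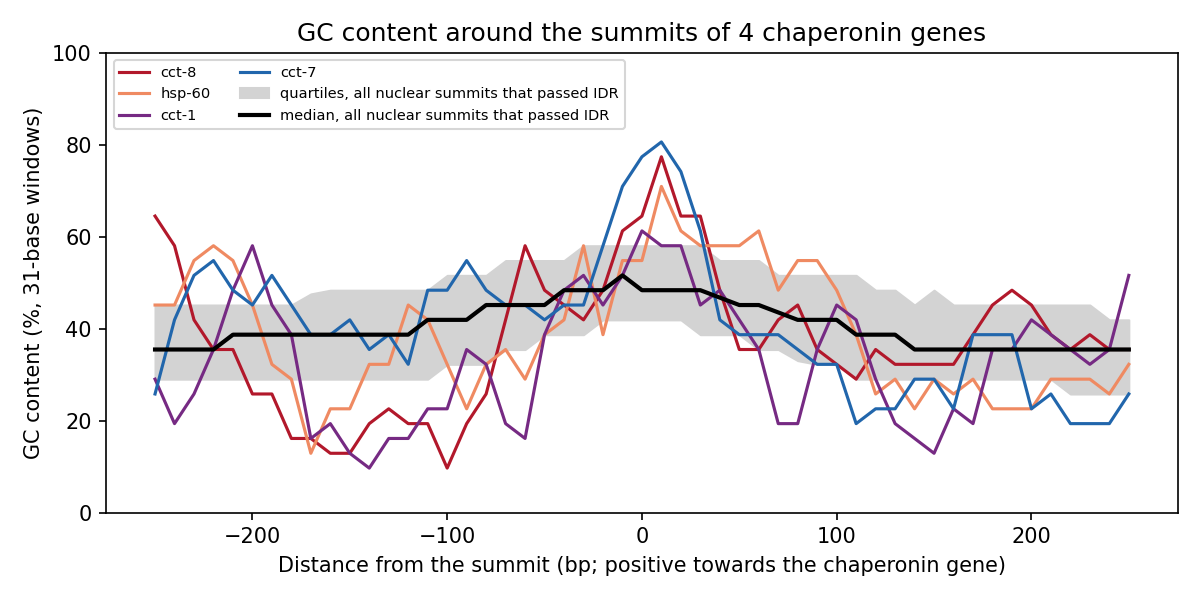
GC content in 31-base windows (percent) by distance from the pooled summit (bp, positive towards the chaperonin gene) for cct-8, hsp-60, cct-1 and cct-7, with the median (black) and quartiles (grey) of the 1010 nuclear summits that passed IDR, taken on the plus strand. The 4 gene profiles peak within 10 bp of the summit, where the median is lower. A median over many summits is smoother than a single profile by construction, so the widths of the peaks cannot be compared. The summits of cct-6, cct-4 and cct-2 are not drawn.

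Within 50 bp of the summits, and on either strand, the longest word shared by any pair of the 3 bound sequences was AAATCGCGG, at cct-8 and cct-1. It is at the right of the capitals of cct-8 and to the left of those of cct-1. The word was taken from these sequences, so its counts include both summits by choice. It was present at 4 of 1010 nuclear summits that passed IDR and at 19 of 29980 pooled summits. Without the summits of cct-8 and cct-1 these counts were 2 of 1008 (0.198%) and 17 of 29978 (0.0567%). It was in 0.185% of the longer 301-base promoters of all nuclear protein-coding genes (250 bases before to 50 after the start). The longest words that hsp-60 shared with the others had 8 letters. Without the summits of each pair, GCGGCAAA, shared with cct-8, was at 0.397% of summits that passed IDR and 0.624% of pooled ones, and ATTTGCAA, shared with cct-1, at 0.496% of those that passed and 0.897% of pooled ones.

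Chaperone genes are classic targets of the heat shock factor, which binds repeats of the unit GAA in alternating directions, so such letters were sought on both strands. A match was counted only where all its bases lay in the window. Counted so, there was no match to any of 6 motifs within 50 bp of the 3 bound summits. A GAANNTTC match at cct-8, centred 50 bp from the summit, crossed the edge of that window. The heat shock motif TTCTAGAA was at 1.39% of summits that passed IDR and 0.510% of pooled summits. The more general half-site pair TTCNNGAA, which includes it, was at 4.95% of those that passed and 5.93% of pooled ones, and its counterpart GAANNTTC at 4.16% and 6.08% of the same sets. The repeat GAGAGAGA was at 6.44% of summits that passed IDR and 1.90% of pooled ones, the E-box CACGTG at 4.65% of those that passed and 2.93% of pooled ones, and the GATA-type motif TGATAA at 4.65% of those that passed and 8.16% of pooled ones. In the same window TTCNNGAA was present at the unbound summits of cct-7 and cct-2, and at that of cct-6 a match crossed the edge. Within 100 bp, GAANNTTC was present at all 3 bound summits, against 8.22% of those that passed IDR and 11.9% of pooled ones, and TTCNNGAA at that of hsp-60 and Y22D7AL.10, against 9.11% of those that passed and 11.8% of pooled ones.

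The mitochondrial pair had a longer element 70 bp from its pooled summit. It holds 3 alternating units spaced by 2 bases, a form that was sought after the data had been seen. The GAANNTTC and TTCNNGAA matches given above within 100 bp of this summit overlap and are both parts of this element. They are therefore 1 site and not separate ones. It lies between the divergent genes at chrIII:1619045-1619057, at -691 bp from hsp-60 and -122 bp from Y22D7AL.10. It is printed on the plus strand with 8 bases on each side and the element in capitals.
hsp-60 element: aaccaaaaGAAGCTTCGAGAAaaaaagca
Within 100 bp of the summit, such an element was present at 2.08% of summits that passed IDR and 1.26% of pooled summits. In the 301-base promoters it was present in Y22D7AL.10 alone of the 10 members, and in 1.98% of all nuclear protein-coding genes.

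The shorter half-site pairs were in the promoters of most members, bound or not. TTCNNGAA was present in the 301-base promoters of 7 of 10 members (cct-1, cct-4, cct-5, cct-6, cct-7, cct-8 and Y22D7AL.10), against 19.0% of all nuclear protein-coding genes. The cct-8 match lay in its own coding sequence, 47 bp after the start, and that of cct-7 in an exon of T10B5.13. The matches of the other members overlapped no annotated exon, and that of Y22D7AL.10 is part of the longer element above. GAANNTTC was in 6 of 10, against 18.6%, and TTCTAGAA was in cct-4 and cct-6, against 2.13%. The GAANNTTC match of cct-8 lay in an exon of another gene. GAGAGAGA, CACGTG and TGATAA were in none of the 10, against 3.54%, 5.84% and 30.3%. A match is a match of letters and shows no binding by any factor.

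Genes that work with the chaperonins are set here beside the 9.68% of all genes with a candidate that were bound. Prefoldin hands unfolded actin and tubulin to CCT; of its 6 subunit genes 5 had a pooled candidate and 1 was bound. This was pfd-1, with a signal of 167 at rank 475 (594 in replicate 4 and 521 in replicate 5), from a summit also in the window of F01G4.6. Of 21 genes for actins and tubulins, the main clients of CCT, 15 had a pooled candidate and 3 were bound. These were tba-2, an alpha tubulin (161, rank 514), tbg-1, the gamma tubulin (141, rank 650), and act-4, an actin (112, rank 1001). The tbg-1 summit lay far from its start, at -806 bp, and was also in the window of rpac-19. The rank of tba-2 was 185 in replicate 4 and 2173 in replicate 5, and that of tbg-1 was 365 in replicate 4 and 2138 in replicate 5. For act-4 the ranks were 1468 in replicate 4 and 1146 in replicate 5, both outside the 1030 highest.

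Among 12 genes of mitochondrial protein folding, proteolysis and stress response, 7 had a pooled candidate and 2 were bound. C34C12.8, the GrpE-type exchange factor of mitochondrial Hsp70, had a signal of 241 at rank 223 (130 in replicate 4 and 548 in replicate 5), at -144 bp. The protease gene clpp-1 had 118 at rank 900 (969 and 887). The gene for mitochondrial Hsp70 itself, hsp-6, had 58.5 at rank 4451 (12180 in replicate 4 and 4802 in replicate 5). For atfs-1, the transcription factor of the mitochondrial unfolded protein response, the signal was 72.6 at rank 2629 (12070 and 1051). Neither passed IDR. Among the genes with no pooled candidate, ubl-5 ranked 1002 in replicate 4 and 1668 in replicate 5. Both dnj-10 and hsp-75 had a candidate in replicate 4 only. The heat shock factor gene hsf-1 and its binding protein gene hsb-1 had no pooled candidate.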

How the data were processed

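The authors derived regions from the alignment of each replicate and of both together, each with 1 further file that also entered the control-normalised tracks, per the listings deposited beside the samples. What called the regions, and at which IDR cut-off they passed, is not given in the sources used. The deposited signal of each summit ranked summits within a list; 1030 of 1030 summits that passed IDR were the highest of the pooled list. Summits were placed as in the deposited files (ce11) against Ensembl release 115 (WBcel235) and the RefSeq assembly of that build, whose chromosomes contain all regions. Each summit counted for every gene whose window held it. The named genes are all 10 members, genes sharing their summits, neighbours of bound members and bound members of 4 related lists. F01G4.6 and rpac-19 share summits with bound members of those lists. The genes rpac-19, hsp-6, atfs-1, ubl-5, dnj-10, hsp-75, hsf-1, hsb-1, ddx-23, F54A3.2 and atf-7 (neighbours of unbound members for the last 3) were named after their values were seen. All names in these lists matched the annotation except clpx-1.

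Members, lists and motifs were chosen with earlier results of these data known. No test was made: there was 1 group, and the 2 replicates were compared by rank. The assignment of summits was tested on simulated positions. The software was Python 3.11.15 with matplotlib 3.10.9 for figures, scipy 1.17.1 for intervals, and pandas 2.3.3 and numpy 2.4.6 for tables.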

Additional observations from a re-analysis of the deposited data

How the results depend on the processing

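The 4 bound chaperonin genes were the same without replicate 4, without replicate 5, with the stricter threshold (the 515 highest pooled summits), with the wider window (2000 bp upstream to 500 bp downstream) and with the starts of all annotated transcripts. The looser threshold (2060 summits) added cct-7, for 5, and the narrower window (500 bp upstream to 100 bp downstream) lost hsp-60, for 3. With 1 gene per summit, given by the nearest start, the count was 1. The share of genes with a candidate that were bound was 5.07% with the stricter and 17.3% with the looser threshold, by construction, 10.6% with the narrower window, 8.51% with the nearest start, and 8.57% to 9.17% when 1 replicate was left out. The median pooled rank of the 3 bound summits, 80, was 64 to 92 in the list of 1 replicate and 61 among nuclear summits. This median is the rank of the hsp-60 summit alone. The rank of cct-8, 63 when pooled, was 44 in replicate 4 and 76 in replicate 5. That of cct-1, 362 when pooled, was 561 in replicate 4 and 287 in replicate 5. Within 100 bp in place of 50 bp of these summits there were 4 motif matches in place of 0, of which GAANNTTC made 3 and TTCNNGAA 1. The element of 3 units, added after the data were seen, had 0 within 50 bp. At the mitochondrial pair the GAANNTTC and TTCNNGAA matches overlap as parts of that element. No paired analysis was possible because there was 1 group and no test. Depth is unknown, so the precision of a single signal or rank cannot be given.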

Other observations

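Of the 10 nearest protein-coding genes on the downstream side of a chaperonin gene, 6 had a pooled candidate and 1 was bound, beside 9.68% of all genes with a candidate and 2.99% of all nuclear protein-coding genes. The bound one was ddx-23, a splicing helicase gene downstream of cct-6, with a pooled signal of 118 at rank 902 and the summit at -130 bp from its start. The neighbours with the next highest signals, Y22D7AL.4 beyond hsp-60 (96.8, rank 1385) and F54A3.2 beyond cct-3 (90.9, rank 1593), did not pass IDR. The gene atf-7, which encodes a transcription factor, downstream of cct-5, had 61.6 at rank 3909, and csn-4, a COP9 signalosome subunit gene downstream of cct-8, had 44.6 at rank 8620, against 523 for the summit upstream of cct-8.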
